A study of Mus musculus with 8 samples.

Results

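The contractile genes of smooth muscle were followed in the intact lungs of mouse embryos aged 14.5 days, in embryos labelled as lacking Ezh2 in the lung epithelium and in controls. The group was set by name and holds 10 genes, Acta2, Actg2, Cnn1, Tagln, Myh11, Myocd, Des, Lmod1, Smtn and Cald1. Each was read from the probe set that carried its symbol alone, and from the brightest where there were several, and all 10 were found among the 22180 genes measured. The study compared 4 mutant embryos, Shh-cre:Ezh2-flox/flox, with 4 control embryos, Shh-cre without floxed alleles, all of a mixed C57BL/6 x 129S6 background and with 1 array each. Controls 1 and 2, controls 3 and 4, mutants 1 and 2, and mutants 3 and 4 were littermates, so each of the 4 litters held a single genotype and litter and genotype are nested. Both groups carry the Shh-cre driver, which is known as a knock-in that disrupts the Shh copy it sits in. The labels place the deletion in the epithelium, and whole lung was measured, so no value is located in 1 cell type.

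Smooth muscle forms around the branching airways and around vessels. Its contractile apparatus is built from actin filaments (Acta2, Actg2), smooth muscle myosin (Myh11) and proteins that bind actin filaments or tune their use (Cnn1, Tagln, Cald1, Smtn, Lmod1), with the intermediate filament protein desmin (Des) alongside. Most of these genes are switched on by serum response factor, SRF, which binds the CArG box in DNA, together with its coactivator myocardin (Myocd). In the lung, Hedgehog signals from the epithelium and BMP and WNT signals between epithelium and mesenchyme are known to guide the formation of airway smooth muscle.

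The values are log2 expression from a 1-colour array, normalized by the authors with RMA, and 1 unit is a doubling. The arrays were alike in level, with medians of 7.05 to 7.12, and any 2 of them correlated at 0.991 to 0.998 over genes. The first principal component held 32.5% of the variance and had control 3 and mutant 3 at its ends. The targeted gene Ezh2 differed little, with a control mean of 11.87 ± 0.05 (SD, n = 4) and a mutant mean of 11.78 ± 0.02 (SD, n = 4), an adjusted p of 0.652 by limma, and it is a weak check of the labels in whole lung. The genes were compared with limma, with litter as a random block and Benjamini-Hochberg adjustment over all genes, and a gene is said to have fallen or risen only where its adjusted p was under 0.05. Airway and vascular smooth muscle share most of these genes, so the values cannot be assigned to airways alone. In whole lung, fewer smooth muscle cells and less RNA per cell cannot be told apart.

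Of the 10 contractile genes, 1 fell in mutant lungs, Cnn1, and 0 rose. Among all genes 0.248% fell and 0.604% rose. At an unadjusted p under 0.05 by limma, 4 of the 10 were lower (Cnn1, Actg2, Myocd and Myh11) and 0 were higher, where 4.26% of all genes were lower and 5.61% higher. In 2 of the 10, Cnn1 and Actg2, every mutant lay below every control, which was so for 3.6% of all genes, and in 0 of the 10 was every mutant above every control, which was so for 4.48%. The log2 change was negative in 9 of the 10, where it was negative in 47.1% of all genes, and its median was −0.09, beside 0.01 over all genes. The differences were therefore uneven: Cnn1 and Actg2 were at 72.6% and 75.1% of the control level, Myocd and Myh11 at 86.1% and 86.9%, and the other 6 between 93.6% and 102.3%.

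**Figure D1:**
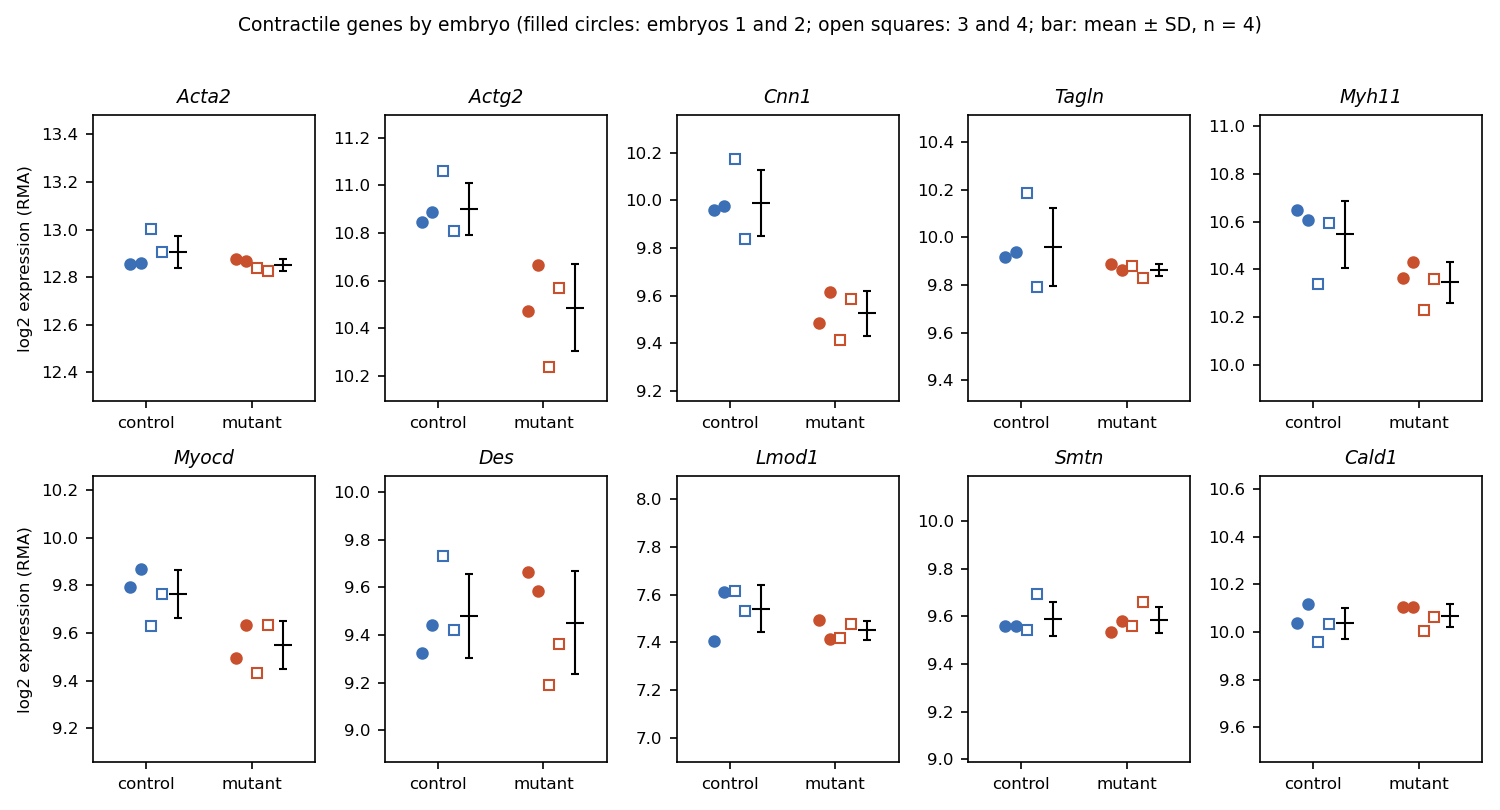
Log2 expression of each contractile gene in every embryo, in panels that each span the same range of log2 units; filled circles are embryos 1 and 2, open squares are embryos 3 and 4, and the bar at the right of each group is the mean ± SD of its 4 embryos. The groups are apart for Cnn1 and Actg2 and overlap for the other 8 genes.

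Cnn1 encodes calponin 1, an actin-binding protein that marks differentiated smooth muscle. Its log2 level was 9.96, 9.98, 10.17 and 9.84 in controls 1 to 4 and 9.48, 9.62, 9.41 and 9.59 in mutants 1 to 4. All mutants were below all controls, with a gap of 0.22 between the groups, and control 3 was highest and mutant 3 lowest. Control embryos averaged 9.99 ± 0.14 (SD, n = 4) and mutant embryos 9.53 ± 0.09 (SD, n = 4). Cnn1 fell by 0.46 ± 0.09 (SE) on the log2 scale, with a 95% interval of −0.66 to −0.27 and an adjusted p of 0.0366 by limma. An exact permutation test, two-sided and treating the 8 embryos as independent, gave p = 0.0286, the lowest value possible with groups of 4. Both mutant litters, with means of 9.55 and 9.50, were below both control litters, with means of 9.97 and 10.01. The size of the difference varied little between settings, from −0.52 to −0.36, but the call was near the threshold and held in 14 of 25 alternatives, with adjusted p from 0.0081 to 0.136 by limma. The 11 settings that ended it include the mean of the 2 littermates (adjusted p = 0.0512 by limma) and the fits without control 1, control 2, mutant 1, mutant 3 or mutant 4 (adjusted p from 0.0515 to 0.0928 by limma).

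Actg2 encodes smooth muscle gamma actin, the actin typical of visceral smooth muscle. Log2 levels of Actg2 were 10.84, 10.89, 11.06 and 10.81 in controls 1 to 4 and 10.47, 10.66, 10.24 and 10.57 in mutants 1 to 4. The groups did not overlap, with a gap of 0.14, and the extremes were again control 3 and mutant 3. Its log2 change was −0.41 ± 0.10 (SE), with a 95% interval of −0.64 to −0.19, and its adjusted p of 0.132 by limma did not pass. The exact permutation p was again 0.0286. It passed without mutant 2 (adjusted p = 0.0483 by limma) and with the Xist level, a measure of embryo sex, as a covariate (adjusted p = 0.0136 by limma), and in no other of the 25 alternatives. Leaving out control 3 and mutant 3 together, a setting chosen after the data were seen, took the log2 change of Actg2 to −0.28 and that of Cnn1 to −0.36.

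Acta2 encodes smooth muscle alpha actin, the most used marker of smooth muscle, and is a close relative of Actg2. Which bases the probes read is not known here, so signal shared between the probe sets of the related actins Acta2, Actg2 and Actc1 was not tested. Controls and mutants had like log2 levels of Acta2, 12.85, 12.86, 13.00 and 12.91 in controls 1 to 4 and 12.88, 12.87, 12.84 and 12.83 in mutants 1 to 4. The groups overlapped, and mutants 1 and 2 were above controls 1 and 2. For Acta2 the log2 change was −0.05 ± 0.06 (SE), with a 95% interval of −0.18 to 0.07, which does not reach the changes estimated for Cnn1 and Actg2. Acta2 was also the member with the smallest spread within groups, a pooled SD of 0.05, and its probe set was brighter than those of 99.8% of genes. Whether so bright a probe set shows the full size of a change in RNA was not tested. Within each array, the Cnn1 value minus the Acta2 value was −3.07 to −2.83 in controls and −3.42 to −3.24 in mutants, and the same difference for Actg2 was −2.10 to −1.94 in controls and −2.60 to −2.20 in mutants. These ranges do not overlap for either gene, a description of unequal change with no test, since the genes were set against each other after their values were seen.

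Acta2 and Cnn1 were picked after the values were seen, because they differed in how they changed. Their upstream sequences are shown because SRF acts through such sequences. They are the 250 bases before the annotated start in RefSeq (GRCm38.p6), Acta2 at chr19:34255374-34255623 on the minus strand and Cnn1 at chr9:22099003-22099252 on the plus strand, written 5′ to 3′ along the gene. Capitals mark CArG boxes in which a single C or G is allowed among the inner bases.
Acta2: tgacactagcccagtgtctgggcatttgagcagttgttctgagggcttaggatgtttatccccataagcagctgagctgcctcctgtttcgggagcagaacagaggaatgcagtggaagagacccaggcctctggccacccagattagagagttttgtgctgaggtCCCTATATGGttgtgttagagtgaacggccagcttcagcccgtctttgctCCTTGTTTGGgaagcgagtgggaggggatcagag
Cnn1: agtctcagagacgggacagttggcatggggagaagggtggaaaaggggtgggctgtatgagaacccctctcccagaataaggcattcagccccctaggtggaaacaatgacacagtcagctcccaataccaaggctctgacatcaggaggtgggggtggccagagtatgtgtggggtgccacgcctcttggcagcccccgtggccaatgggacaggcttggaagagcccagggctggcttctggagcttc
Acta2 had 2 such sites, CCCTATATGG at 84 to 75 bases and CCTTGTTTGG at 34 to 25 bases before the start, and Cnn1 had 0. Promoters were matched for 6 of the 10 genes, in 7 records, and 4 genes (Actg2, Tagln, Myh11 and Myocd) had no entry. The relaxed CArG box was in 1 of these 7 windows, that of Acta2, and in 8.59% of 32851 RefSeq windows of the same length. The strict box, with no C or G inside, was in 0 of the 7 and in 1.47% of all. The motif CATTCC, the core of sites bound by TEAD factors, was present on either strand in 4 of the 7 (Acta2, 1 of the 2 Cald1 windows, Lmod1 and Smtn) and in 12.6% of all. The short motif CANNTG, the E-box, was in 6 of the 7 and in 66.2% of all, and overlapped no CArG site. A match is a description of letters, and the part of such sites in the changes was not tested. CArG boxes in introns or farther upstream were not searched.

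Myocd, the gene of the SRF coactivator myocardin, was the only transcriptional regulator among the members. Its log2 level was 9.79, 9.87, 9.63 and 9.76 in controls 1 to 4 and 9.49, 9.63, 9.43 and 9.63 in mutants 1 to 4. The groups met at control 3 and mutants 2 and 4, and the other 3 controls were above all mutants. A log2 change of −0.22 ± 0.08 (SE), with a 95% interval of −0.39 to −0.04, did not pass. Its adjusted p was 0.372 by limma and its exact permutation p 0.0857.

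Myh11, the gene of smooth muscle myosin heavy chain, varied between embryos much as Myocd did. The log2 level of Myh11 was 10.65, 10.61, 10.34 and 10.59 in controls 1 to 4 and 10.36, 10.43, 10.23 and 10.36 in mutants 1 to 4. Control 3 lay within the range of the mutants, and the other 3 controls were above all mutants. Its log2 change was −0.20 ± 0.08 (SE), with a 95% interval of −0.39 to −0.02, an adjusted p of 0.456 by limma and an exact permutation p of 0.114. In 6 of the 10 genes, Cnn1, Actg2, Myocd, Myh11, Tagln and Lmod1, both mutant litter means were below both control litter means, which was so for 17.3% of all genes. For Myocd these means were 9.56 and 9.53 against 9.83 and 9.70, and for Myh11 10.40 and 10.29 against 10.63 and 10.47.

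**Figure D2:**
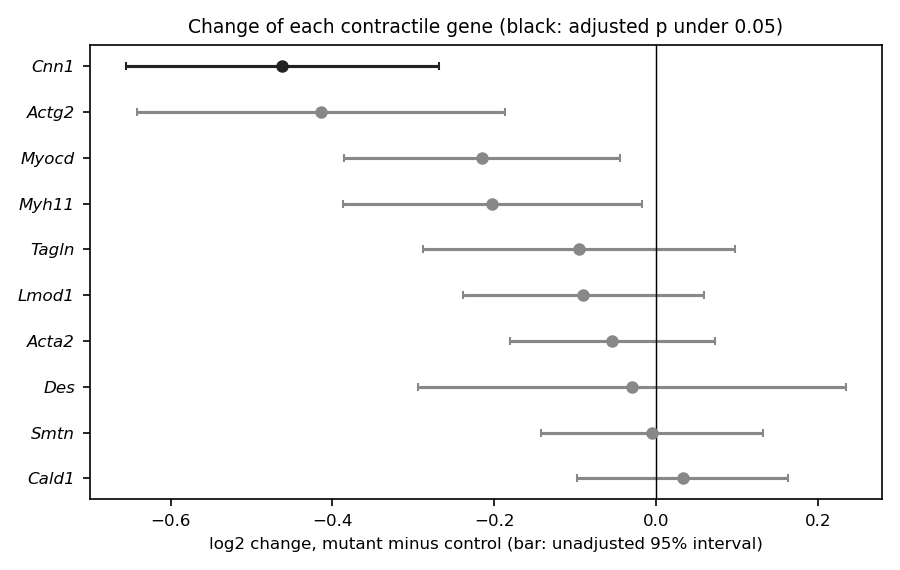
Log2 change of each contractile gene, mutant minus control, with its 95% interval from the limma fit before adjustment; black marks the gene with an adjusted p under 0.05. The intervals of Cnn1, Actg2, Myocd and Myh11 lie below 0, and those of the other 6 genes span 0.

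Tagln encodes transgelin (SM22), an early marker of smooth muscle that binds actin. Log2 levels of Tagln were 9.92, 9.94, 10.19 and 9.79 in controls 1 to 4 and between 9.83 and 9.89 in all 4 mutants. The mutants lay within the range of the controls, which were spread by control 3 above and control 4 below. The log2 change was −0.10 ± 0.09 (SE), with a 95% interval of −0.29 to 0.10, and −0.016 without control 3. Within controls the SD was 0.16 and within mutants 0.03. Lmod1, which encodes a leiomodin that nucleates actin filaments, was dim, with log2 levels of 7.41 to 7.62 in controls and 7.41 to 7.49 in mutants, and a log2 change of −0.09 ± 0.07 (SE).

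Smtn encodes smoothelin, a protein of the contractile filaments, and Cald1 encodes caldesmon, which restrains the action of myosin on actin and is also made by non-muscle cells. Smtn was at 9.54 to 9.70 in controls and 9.53 to 9.66 in mutants, and Cald1 at 9.96 to 10.12 in controls and 10.01 to 10.10 in mutants. Their log2 changes were −0.01 ± 0.06 (SE) and 0.03 ± 0.06 (SE), and the groups overlapped almost fully. The 95% intervals, −0.14 to 0.13 for Smtn and −0.10 to 0.16 for Cald1, do not reach the changes estimated for Cnn1 and Actg2. The sign of each reversed in some alternatives. A dimmer probe set of Smtn, with a mean of 6.64 in controls and 6.70 in mutants, gave a log2 change of 0.06.

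Des, the gene of desmin, was the least even of the 10. Its log2 level was 9.33, 9.44, 9.73 and 9.42 in controls 1 to 4 and 9.67, 9.58, 9.19 and 9.36 in mutants 1 to 4. Mutants 1 and 2 were above 3 of the controls, mutant 3 was the lowest embryo, and the groups overlapped. The litter means of Des were 9.38 and 9.58 in controls and 9.62 and 9.28 in mutants. Its log2 change was −0.03 ± 0.12 (SE), with a 95% interval of −0.29 to 0.23, which takes in the change estimated for Myocd. Without control 3 its sign reversed, to 0.05, as it did without mutant 3, also to 0.05.

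**Figure D3:**
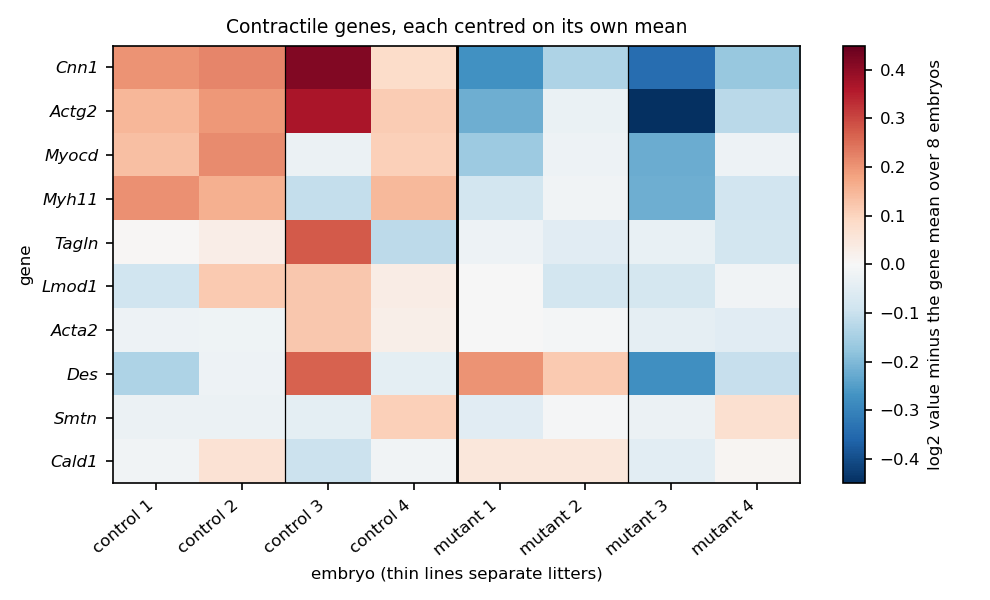
Heat map of the 10 contractile genes by embryo, each gene as its log2 value minus its own mean over the 8 embryos (colour scale, log2 units), with a thick line between genotypes and thin lines between litters. Control 3 is the highest embryo for Cnn1, Actg2, Tagln and Des but the lowest control for Myh11 and Myocd, and mutant 3 is the lowest embryo for Cnn1, Actg2, Myocd, Myh11 and Des.

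The spread between embryos was close to that of all genes, which were not matched to the members for level. The pooled SD within groups had a median of 0.11 over the 10 genes, from 0.05 in Acta2 to 0.20 in Des, beside a median of 0.10 over all genes. Littermates differed by a median of 0.08 among the 10 genes and 0.09 among all genes, and litter means of 1 genotype differed by medians of 0.07 and 0.08. The SD was smaller in mutants for 7 of the 10 genes and for 51.0% of all genes. Control 3 was the highest of the 8 embryos for 6 of the 10 genes and the lowest control for the other 4, Myh11, Myocd, Smtn and Cald1. Mutant 3 was the lowest of the 8 embryos for 5 genes. As the mean of the 10 genes, each centred on its own mean, controls 1 to 4 were at 0.04, 0.09, 0.13 and 0.04 and mutants 1 to 4 at −0.06, −0.02, −0.17 and −0.06.

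The members were unequally alike across embryos. As a description over the 8 embryos, which include 4 pairs of littermates, Actg2 and Cnn1 were the most alike, with a Pearson r of 0.96, followed by Myh11 and Myocd at 0.92 and Acta2 and Tagln at 0.78. Smtn and Cald1 followed the mean of the other 9 genes at r of −0.09 and −0.16, and Actg2 followed it most closely, at 0.98. Smtn and Cald1 varied little, with a pooled SD of 0.06 each, which limits what their r can show. Within genotypes, after each genotype's mean was removed, Actg2 stayed at 0.93 and Myh11 was at −0.16. The mean of the 10 genes followed the first principal component of all genes at r of 0.95, and the part of that component in the differences between genotypes was not tested.

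The 8 genes outside the group that followed its mean most closely over the 8 embryos, among 17235 candidates, were Pno1 (Pearson r 0.99), Abraxas2, Zfp317, Rps6ka6, Dcun1d4, Hibch, Zscan22 and Tmem39a (r 0.98 each). They share the 8 arrays and their first component with the members. In all 8 of these genes the mutants lay below the controls, with log2 changes from −0.33 (Zfp317) to −0.12 (Tmem39a), and 0 of the 8 passed the test. At r above 0.9 stood 311 candidates, or 1.80% of them. These genes were picked for their likeness, so their differences are no support for those of the members.

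The other genes of the smooth muscle cytoskeleton had a median near 0. Of 38 measured, 0 passed in either direction by limma, and the median log2 change was −0.01. Lower at an unadjusted p under 0.05 by limma were 4 of the 38, and 3 were higher, beside 4.26% and 5.61% of all genes. The lowest were Myl6, a myosin light chain, with a log2 change of −0.40 ± 0.14 (SE), Nexn, which binds actin, with −0.21, and Tpm1, a tropomyosin, with −0.15. The highest were Synm, an intermediate filament protein, with 0.34, the integrin Itga8 with 0.18 and the leiomodin Lmod2 with 0.16. The regulatory light chain Myl9 had a log2 change of −0.10 and its kinase Mylk 0.14. Cnn2 and Cnn3, the other calponins, had log2 changes of −0.09 and 0.05, and the non-muscle actins Actb and Actg1 had −0.03 and −0.06.

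Among 20 genes of smooth muscle calcium handling and receptors, 0 passed by limma, 1 was lower and 1 higher at an unadjusted p under 0.05, and the median log2 change was −0.01. Kcnmb1, the smooth muscle subunit of the large potassium channel, had a control mean of 8.70 ± 0.14 (SD, n = 4) and a mutant mean of 8.33 ± 0.15 (SD, n = 4), with all mutants below all controls, a log2 change of −0.37 ± 0.10 (SE) and an adjusted p of 0.179 by limma. Mrvi1, a substrate of cGMP-dependent kinase, and Jph2, a junctophilin, had −0.09 and −0.08. The highest were the muscarinic receptor Chrm3 with 0.33, the calcium channel Ryr2 with 0.14 and the prostacyclin receptor Ptgir with 0.14.

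Among 27 transcription factors of smooth muscle and SRF partners other than Myocd, 0 passed by limma, and the median log2 change was 0.05. At an unadjusted p under 0.05 by limma, 0 were lower and 6 higher, beside 4.26% and 5.61% of all genes. Each of these 6 had all mutants above all controls, which was so for 4.48% of all genes. Srf itself had a log2 change of −0.06 ± 0.06 (SE), and its other coactivators Mrtfa and Mrtfb had 0.02 and 0.14. The adjusted p of Mrtfb was 0.444 by limma. Klf5, Tbx18 and Zeb1 were the highest, at 0.28, 0.24 and 0.20, and Foxf2 and Tcf21 of the lung mesenchyme were the lowest, at −0.09 and −0.08. The 11 immediate SRF targets that growth signals induce, such as Fos (0.13) and Egr1 (0.05), had 0 passing and 0 at an unadjusted p under 0.05 by limma, with a median of −0.01. The lowest was Ccn1, at −0.14.

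Of 41 genes of the signals that guide airway smooth muscle, 2 rose, 1 fell and 38 did not pass, with a median log2 change of 0.03. Over all genes 0.604% rose and 0.248% fell. At an unadjusted p under 0.05 by limma, 7 of the 41 were lower and 7 higher, beside 4.26% and 5.61% of all genes. Every mutant lay below every control in 7 of the 41 and above in 5, beside 3.6% and 4.48% of all genes. Bmpr1b, a BMP receptor, fell by 0.52 ± 0.09 (SE), and Lef1, a transcription factor of WNT signalling, and Tgfb2, a TGF-beta ligand, rose by 0.33 each on the log2 scale. The Hedgehog ligand Shh had a log2 change of −0.28 ± 0.08 (SE), with all mutants below all controls and an adjusted p of 0.163 by limma. Its targets in the mesenchyme, Ptch1, Gli1 and Hhip, had −0.11, −0.07 and −0.22, and did not pass. The WNT ligands Wnt11, Wnt5a, Wnt7b and Wnt2b had −0.25, −0.21, 0.10 and 0.55, and the BMP ligand Bmp4 had 0.37 ± 0.13 (SE). None of these 5 passed.

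**Figure D4:**
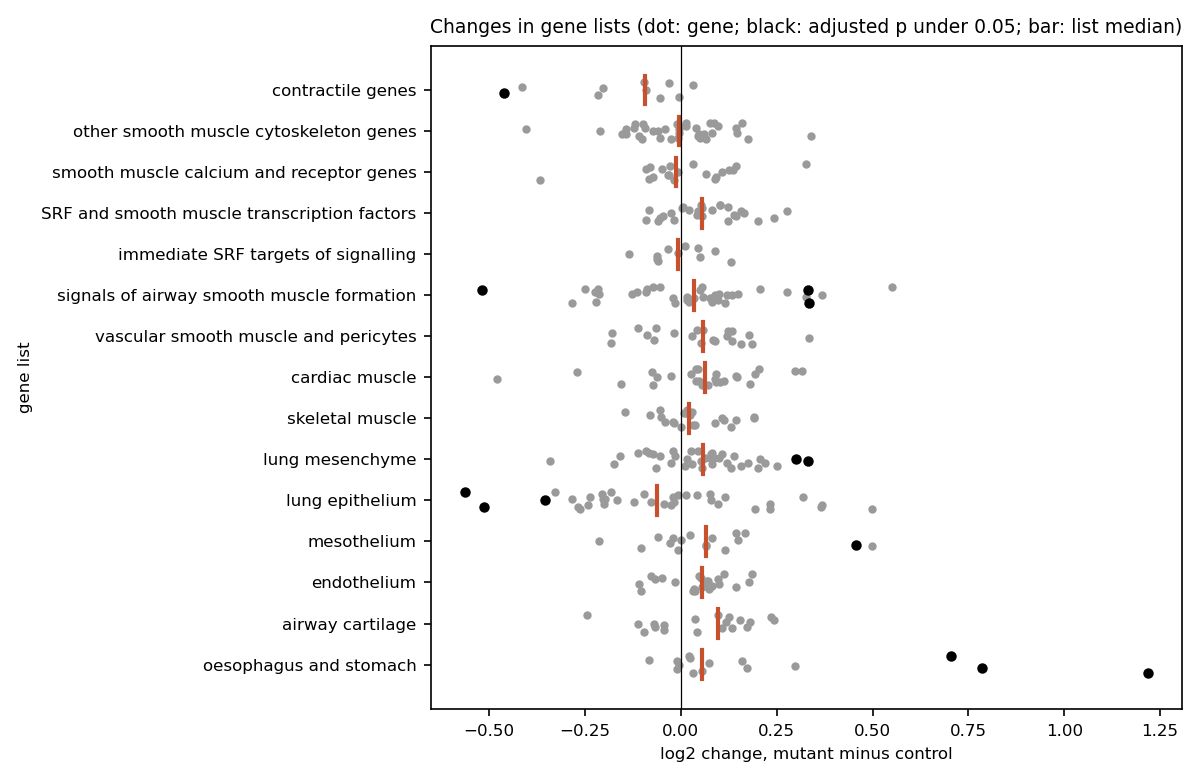
Log2 change, mutant minus control, of every measured gene in the contractile group and in 14 other lists; each dot is a gene, black dots have an adjusted p under 0.05 and the orange bar is the list's median. The contractile genes have a median of −0.09, and the other smooth muscle lists lie near 0.

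Other muscle and mesenchyme was read beside these results from marker lists. The table has no zero and no detection calls, so no marker can be called absent. Over all genes, 4.26% were lower and 5.61% higher at an unadjusted p under 0.05 by limma. Of 21 markers of vascular smooth muscle and pericytes 0 passed by limma, 0 were lower and 2 higher at an unadjusted p under 0.05. Their median log2 change was 0.06, and their summed linear signal was 14865 to 16488 in controls and 15719 to 16053 in mutants. Notch3, a receptor of vascular smooth muscle, and Rgs5, of pericytes, had 0.16 and −0.18. Of 26 cardiac muscle markers 0 passed by limma, 2 were lower and 2 higher at an unadjusted p under 0.05, and the summed signal was 5431 to 6132 in controls and 5341 to 5600 in mutants. The lowest was Actc1, cardiac alpha actin, a relative of the smooth muscle actins. Actc1 was also the brightest of the 26, so it weighs most in the summed signal. Its control mean was 10.85 ± 0.03 (SD, n = 4) and its mutant mean 10.37 ± 0.28 (SD, n = 4), with all mutants below all controls. The log2 change of Actc1 was −0.48, with an adjusted p of 0.148 by limma. The highest were Tnnt2, cardiac troponin T, at 0.32, and the heart regulator Nkx2-5 at 0.30, with all mutants above all controls for Nkx2-5. Of the 26, 19 were positive, with a median of 0.06, and the heart myosins Myh6 and Myl7 had log2 changes of 0.06 and 0.10. Of 22 skeletal muscle markers 0 passed by limma, 0 were lower and 2 higher at an unadjusted p under 0.05, and the summed signal was 2322 to 2570 in controls and 2373 to 2646 in mutants.

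Lung mesenchyme, the tissue that smooth muscle arises from, held no marker that fell. Of 38 markers 2 rose, Lef1 and Meis2, 0 fell, and the median log2 change was 0.06. At an unadjusted p under 0.05 by limma, 2 of the 38 were lower and 5 higher, beside 4.26% and 5.61% of all genes. Every mutant lay below every control in 1 of the 38 and above in 8, beside 3.6% and 4.48% of all genes. The summed signal of the 38 markers was 82132 to 85348 in controls and 86468 to 86950 in mutants, so the groups did not overlap. With each array centred on these markers, the log2 change of Cnn1 was −0.51, that of Actg2 was −0.46 and the median of the 10 genes was −0.14. Such centring moves every gene of an array equally, and the median over all genes went from 0.01 to −0.04. Of 36 lung epithelium markers 0 rose and 3 fell, Foxa1, Irx5 and Irx3, by 0.56, 0.51 and 0.35 on the log2 scale. At an unadjusted p under 0.05 by limma, 14 of the 36 were lower and 5 higher, beside 4.26% and 5.61% of all genes. Every mutant lay below every control in 11 of the 36 and above in 2, beside 3.6% and 4.48% of all genes. The median of that list was −0.06, and its summed signal was 38438 to 44765 in controls and 39078 to 41298 in mutants. Of 17 mesothelium markers 1 rose, Upk1b, by 0.46, 0 fell, and the median log2 change was 0.06. At an unadjusted p under 0.05 by limma, 0 of the 17 were lower and 2 higher. The summed signal of the 17 was 8639 to 9270 in controls and 9501 to 9665 in mutants. Of 15 markers of oesophagus and stomach, organs that hold Actg2-rich smooth muscle, 3 rose, Krt4, Pax9 and Trp63, and 0 fell. These 3 had log2 changes of 1.22, 0.78 and 0.71, while Krt13 and Dsc3 had −0.01 each. Whole lung was measured, and the source of the 3, the lung's own epithelium or tissue of these organs, was not tested. The median of the list was 0.05, with 11 genes positive and 4 negative, the lowest Nkx2-3 at −0.08. At an unadjusted p under 0.05 by limma, 0 were lower and 5 higher, beside 4.26% and 5.61% of all genes. The summed signal was 1558 to 1709 in controls and 1938 to 2148 in mutants. The part of mesenchyme, mesothelium, epithelium or oesophagus in the results on contractile genes was not tested.

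**Figure D5:**
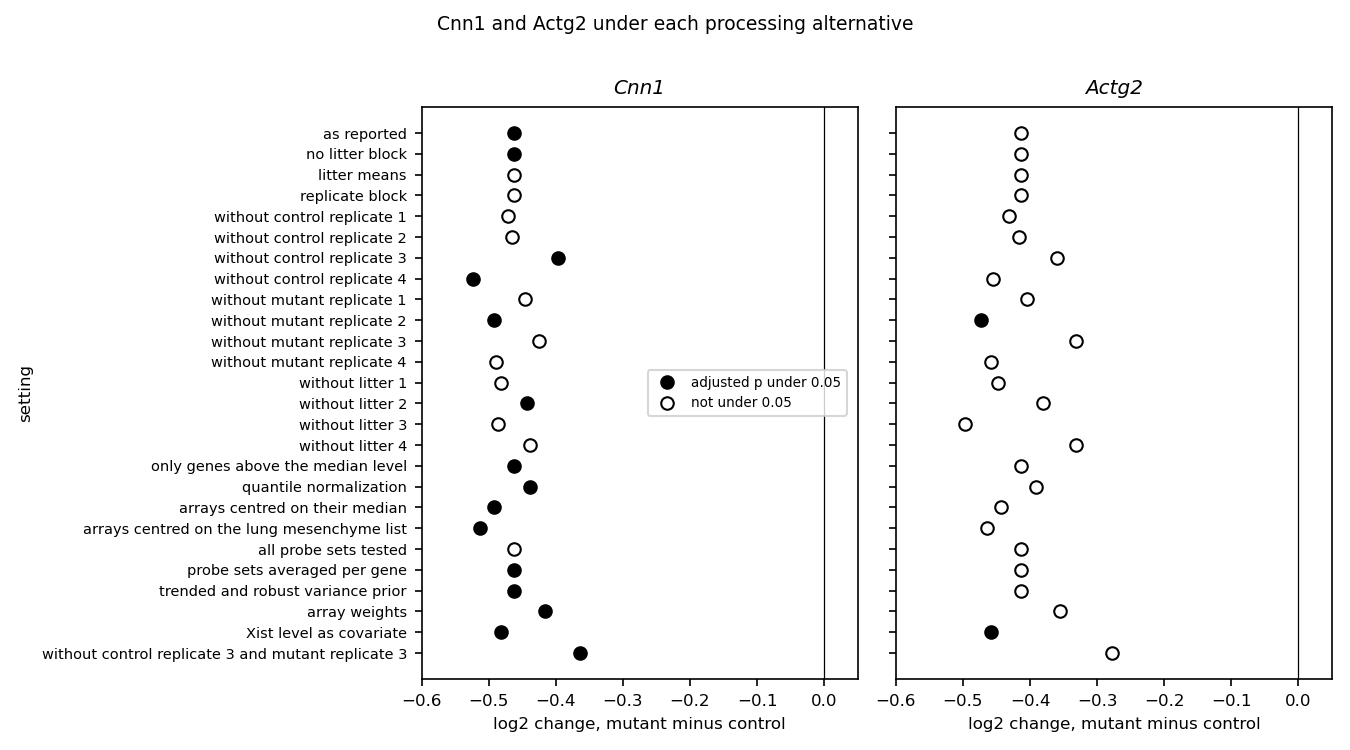
Log2 change, mutant minus control, of Cnn1 (left) and Actg2 (right) as reported and under 25 processing alternatives, with filled points where the adjusted p was under 0.05. Every point is below 0, from −0.52 to −0.36 for Cnn1 and from −0.50 to −0.28 for Actg2.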

How the data were processed

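Lungs of 8 mouse embryos were measured with 1 array each. Per the labels' protocols, 100 ng of total RNA was copied from a poly(T) primer, amplified and biotin-labelled. The deposited log2 values were made by the authors with RMA in oligo, per the submitters' processing notes, whose versions and options are not stated there. RMA gives arrays like distributions and draws changes of dim genes towards 0. Of 41345 probe sets, 23521 had 1 gene symbol, 1814 several and 16010 were not listed, and the brightest probe set was kept for each of 22180 genes. limma 3.58.1 in R 4.3.3 was run with litter as a random block (correlation 0.153). Tests were two-sided. The numbers of arrays and of litters limit the precision. The fit used the same litter correlation for all genes, and its intervals take embryos, not litters, as units. The members and lists were chosen with earlier results of these data known. The rule named all 10 members, the 8 genes most like their mean, and in each list the genes that passed and those with the largest changes, and further list genes were named for their roles. Of the lists of other cell types mainly the genes that passed are printed, and some genes are in more than 1 list. Figures used Python 3.11.15 and matplotlib 3.10.9. The fit was tested on simulated data.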

Additional observations from a re-analysis of the deposited data

Results flagged for a closer look

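Smtn in control 4, at a log2 value of 9.70, stood far above the nearest other control, at 9.56, for the size of its group's range. This was 1 of 20 groups of 4 values examined, where chance gives about 1 in 20. Without control 4 the log2 change of Smtn was 0.03.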

How the results depend on the processing

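The log2 changes of Cnn1, Actg2, Acta2, Tagln, Myh11, Myocd and Lmod1 were negative in every alternative run. The count of contractile genes that fell, 1 as reported, was 0 with the 2 littermates averaged, without litter 1, 3 or 4, and with all probe sets tested, 2 with Xist as a covariate, and 0 to 2 with 1 embryo left out. Same-numbered controls and mutants came from different litters, and the numbers 1 to 4 were not taken as pairs. Same-numbered deviations correlated at −0.27 to 0.03 and differently numbered ones at −0.22 to 0.38, which cannot settle pairing. With the number as a replicate block the count was 0. The median change of the 10 genes was −0.15 without litter 3, and −0.13 to −0.04 with 1 embryo left out. Des reversed to 0.0663 without litter 2, 0.145 without litter 4, 0.0566 with array weights and 0.143 without control 3 and mutant 3 together, and ranged from −0.0957 to 0.0531 with 1 embryo left out. Smtn reversed to 0.0252 without litter 2, 0.0211 without litter 3, 0.0155 with quantile normalization and 0.0272 with probe sets averaged, and ranged from −0.0301 to 0.0311 with 1 embryo left out. Cald1 reversed to −0.0069 without litter 2, −0.0021 without litter 3 and −0.0178 with arrays centred on the mesenchyme list. Over all genes, 134 rose and 55 fell as reported. The counts were 65 and 33 with littermates averaged, 77 and 26 with all probe sets tested, 361 and 313 with the Xist covariate, 75 and 23 without litter 4, and 73 to 157 and 28 to 75 with 1 embryo left out. Those that fell were 95 without the litter block, 90 without litter 1, 91 with quantile normalization and 94 with mesenchyme centring. The causes were not tested. Fits without a litter took littermates as independent.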

Other observations

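Endothelium and airway cartilage, which lie beside airway muscle, held no gene that passed. Over all genes, 4.26% were lower and 5.61% higher at an unadjusted p under 0.05 by limma. Of 23 endothelial markers 0 passed by limma, 0 were lower and 2 higher at an unadjusted p under 0.05, with a median log2 change of 0.05. The highest were the receptors Tek and Eng at 0.19 and 0.18, and the lowest were Lyve1 and Prox1, of lymphatic endothelium, at −0.11 and −0.10. Of 19 cartilage markers 0 passed by limma, 1 was lower and 4 higher at an unadjusted p under 0.05, with a median of 0.10. The lowest was Col2a1, the collagen of cartilage, at −0.24 with an adjusted p of 0.304 by limma, and the highest was Matn4, a matrilin, at 0.24.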
